A study of Mus musculus with 2 samples.

Results

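The 7 genes Grin1, Grin2a, Grin2b, Grin2c, Grin2d, Grin3a and Grin3b encode all subunits of the NMDA receptor, and they were taken by name from the 21774 protein-coding mouse genes of RefSeq. Each was examined for peaks of H3K9me2, histone H3 dimethylated on lysine 9, within its gene body and 2 kb on either side. The peaks came from activated B cells of C57BL/6 mice, with 1 wild-type library (genotype WT) and 1 library from the genotype given as jmjd1c B KO (KO). Activation conditions, age, the number of animals per library and what drives the deletion are not given in the sources used here. The chromatin was profiled by CUT&Tag, a method that tethers a transposase to antibody-bound chromatin and sequences the DNA it cuts there. The genes were chosen by name, but with the WT and KO peak numbers of Grin2a, 2 and 8, already known, so that difference was used in choosing them and is given as a description. Because there is 1 library per genotype, differences between WT and KO have no replicate behind them and are given without p-values.

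NMDA receptors are glutamate-gated cation channels of excitatory synapses. They are assembled from the obligatory glycine-binding subunit GluN1 (Grin1), glutamate-binding GluN2 subunits (Grin2a to Grin2d) and, in some receptors, glycine-binding GluN3 subunits (Grin3a and Grin3b), and they are known for calcium entry in synaptic plasticity. Their main site is the brain, and the genes were looked at here as neuronal genes in a B cell. H3K9me2 is a mark of repressed chromatin, placed by methyltransferases such as G9a, and Jmjd1c belongs to the jumonji family that holds H3K9 demethylases.

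The libraries held 33474010 tags (WT) and 34502392 tags (KO), and the authors called 31623 and 32149 peaks in them on chromosomes 1 to 19, X and Y. The caller extended tags to a length d of 292 bp in WT and 189 bp in KO, which is also the smallest possible peak, so widths and pileups are not comparable between the lists as they stand. The 6 B cell marker genes Cd79a, Cd79b, Ms4a1, Cd22, Pax5 and Ebf1 had no peak in either library, but peak lists hold no expression and are a weak check of the cell type. All positions are on mm10.

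The 7 genes fell into 2 groups by peak number. The 3 long genes, Grin2a (428 kb), Grin2b (460.4 kb) and Grin3a (184 kb), carried all 28 WT and all 33 KO peaks, or 25.8 and 30.4 peaks per Mb of window. The 4 short genes, Grin1 (28.01 kb), Grin2c (18.1 kb), Grin2d (39.3 kb) and Grin3b (6.79 kb), carried none in either library. For comparison, 9.69% of all protein-coding gene windows had a WT peak, 9.90% a KO peak and 11.8% a peak in either library. The members therefore split by length, and the GluN2 and GluN3 subfamilies each had genes on both sides of the split. The number of other protein-coding genes within 500 kb of the window splits the members in the same way. It is 7 for Grin2a, 8 for Grin2b and 10 for Grin3a, and 43 to 60 for the short genes. Length and gene density were not tested apart.

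The obligatory subunit gene Grin1 lies on chromosome 2 from 25291177 to 25319187, Grin2c on chromosome 11 from 115249169 to 115267297, Grin2d on chromosome 7 from 45831883 to 45871194 and Grin3b on chromosome 10 from 79970397 to 79977190. Each of these 4 windows had 0 peaks in WT and 0 in KO, and a count of 0 has an exact Poisson 95% interval that ends at 3.69 peaks. They sit among many genes, with 60 (Grin1), 43 (Grin2c), 49 (Grin2d) and 59 (Grin3b) other protein-coding genes within 500 kb of the window. No peak of either library lay within those 500 kb. The distance from the RefSeq promoter stretch to the closest WT peak was 1141 kb for Grin1, 2335 kb for Grin2c, 1372 kb for Grin2d and 528 kb for Grin3b. For genes this short an empty window was the usual state: of the genes with a window within 1.5 times that of the member, 92.3% had no peak in either library for Grin1, 94.1% for Grin2c, 91.8% for Grin2d and 93.7% for Grin3b.

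Promoter sequences of these 4 short genes are in RefSeq (GRCm38.p6, the assembly behind mm10), whereas those of Grin2a, Grin2b and Grin3a were not used here. A promoter stretch is here the 250 bases before the transcript start that the table lists. For Grin1 that start is the end of the gene body, so the stretch lies wholly outside it, and it is printed to show how CG-rich a peak-free promoter can be. It is written 5′ to 3′ on the strand of the gene, with each CG dinucleotide, the only motif searched and the same on both strands, in capitals. It lies at chr2:25319188-25319437 on the minus strand.
Grin1: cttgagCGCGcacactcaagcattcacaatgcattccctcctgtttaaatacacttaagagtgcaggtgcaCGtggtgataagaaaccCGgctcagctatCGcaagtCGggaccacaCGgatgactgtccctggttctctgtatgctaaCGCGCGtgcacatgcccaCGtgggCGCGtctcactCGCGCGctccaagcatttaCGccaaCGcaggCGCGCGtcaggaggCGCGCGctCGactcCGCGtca
The Grin1 stretch holds 27 CG pairs, that of Grin2c 15, that of Grin2d 9 and that of Grin3b 2. In the other 3 genes the listed start lies within the body as the gene table gives it, by 54 bp in Grin2c, 4.51 kb in Grin2d and 327 bp in Grin3b, so these stretches lie partly (Grin2c) or wholly inside the gene. At least 1 CG was found in 92.1% of all promoter stretches of this length in the table, and 8.56% had as many as Grin1 and 81.2% as many as Grin3b. None of the 4 promoters overlapped a peak. Of the 32851 promoters of the table, 410 were overlapped by a WT peak and 388 by a KO peak, so an empty promoter is the common state.

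**Figure D1:**
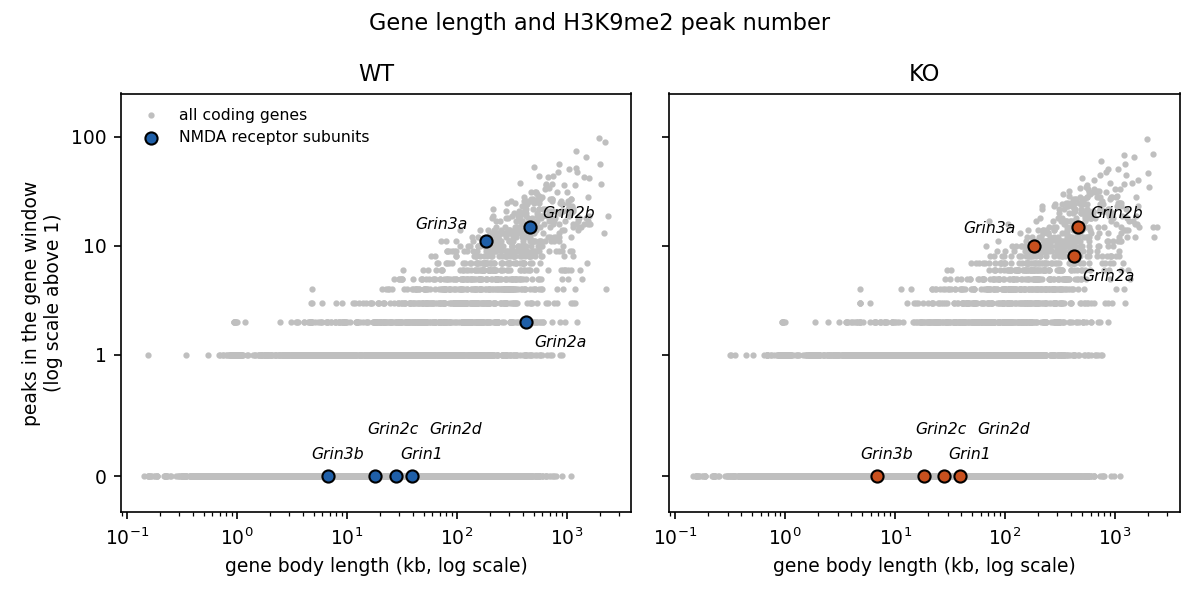
Gene body length (horizontal axis, kb, log scale) against the number of H3K9me2 peaks in the gene body with 2 kb on either side (vertical axis, log scale above 1) for all 21774 protein-coding genes (grey) and the 7 NMDA receptor subunit genes (coloured), WT on the left and KO on the right. The 4 short subunit genes lie at 0 in both panels, Grin2b and Grin3a stay at 10 to 15 peaks, and Grin2a is at 2 peaks in WT and 8 in KO.

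Length alone did not give the number of peaks. Grin3a, the shortest of the 3 long genes, was the densest, at 58.4 (WT) and 53.1 (KO) peaks per Mb. Grin2b had 32.3 per Mb in both libraries, and Grin2a, of nearly the same length, 4.63 in WT and 18.5 in KO. Over all protein-coding windows the density was 8.71 and 8.87 per Mb. Grin2a in WT was thus below that level and the other 5 values above it.

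Set beside genes with a window within 1.5 times their own, Grin3a stood high and Grin2a did not. Of 1265 genes like Grin3a in length, the median had 0 peaks, and 39 (3.08%) had at least its 11 WT peaks and 51 (4.03%) at least its 10 KO peaks. Of 417 genes like Grin2b, the median had 4 peaks in each library, and 79 (18.9%) and 82 (19.7%) reached its 15 peaks. Of 458 genes like Grin2a, 280 (61.1%) had at least 2 WT peaks and 168 (36.7%) at least 8 KO peaks, and 140 (30.6%) had no peak in either library.

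The gene for GluN2B, a glutamate-binding subunit prominent in the developing forebrain, lies on chromosome 6 from 135713221 to 136173615. Grin2b had 15 peaks in WT (exact Poisson interval 8.40 to 24.7) and 15 in KO. These covered 1.80% of the window in WT and 1.49% in KO, where peaks were called with the smaller d. Of the 15 WT peaks 9 shared at least 1 bp with a KO peak, and so did 9 of the 15 KO peaks with a WT peak. The peaks of both libraries together made 21 sites, spread over the whole gene, and the longest stretch free of peaks was 76.9 kb.

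The most significant Grin2b peaks were the same 2 sites in both libraries. The first, near the lower-coordinate end, ran from 135715616 to 135716061 in WT and from 135715729 to 135716000 in KO, with a −log10 q of 5.28 and 6.21. The second, in the interior, ran from 135982443 to 135982888 in WT and from 135982397 to 135982787 in KO, with 6.59 and 6.02. They were the only Grin2b peaks at a q of 1e-05 or lower in either list. Another shared site, from 135942236 to 135943673 in WT and from 135942360 to 135943585 in KO, was the widest (1438 and 1226 bp) but close to the middle of each list in significance, at 3.35 and 2.93. The shared pair with the smallest overlap, 8 bp, was the WT peak from 135974386 to 135974854 and the KO peak from 135974125 to 135974393. Among unshared peaks the highest was a KO peak from 135894195 to 135894861 (4.65), with the closest WT peak 47.4 kb away.

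Grin3a encodes GluN3A, a subunit that lowers calcium permeability, and lies on chromosome 4 from 49661611 to 49846023. It had 11 peaks in WT (exact Poisson interval 5.49 to 19.7) and 10 in KO (4.80 to 18.4). Covered share was 3.72% of the window in WT and 2.04% in KO, where the KO peaks were called with the smaller d. Each library had 5 peaks overlapped by the other, within 16 sites in all. The lowest 41.5 kb of the gene body, from 49661611 to 49703128, had no peak in either library. That stretch holds Ppp3r2, a calcineurin regulatory subunit gene nested in Grin3a.

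The strongest Grin3a calls differed between the lists. In WT the top call, from 49817848 to 49819093 with a −log10 q of 5.36, had no overlapping KO peak, and the closest one lay 4.82 kb away. In KO the top call, from 49778888 to 49779113 (5.49), lay inside a WT peak from 49778753 to 49779218 (3.88). At the upper-coordinate end, a WT peak from 49843972 to 49844655 (4.53) overlapped a KO peak from 49844234 to 49844973 (3.69). A further KO peak, from 49847225 to 49847569 (2.51), was the only member peak beyond a gene body, 1.37 kb past the upper end and so just inside the 2 kb limit. The closest peaks outside that limit were 22.8 kb (WT) and 22.9 kb (KO) above the gene.

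**Figure D2:**
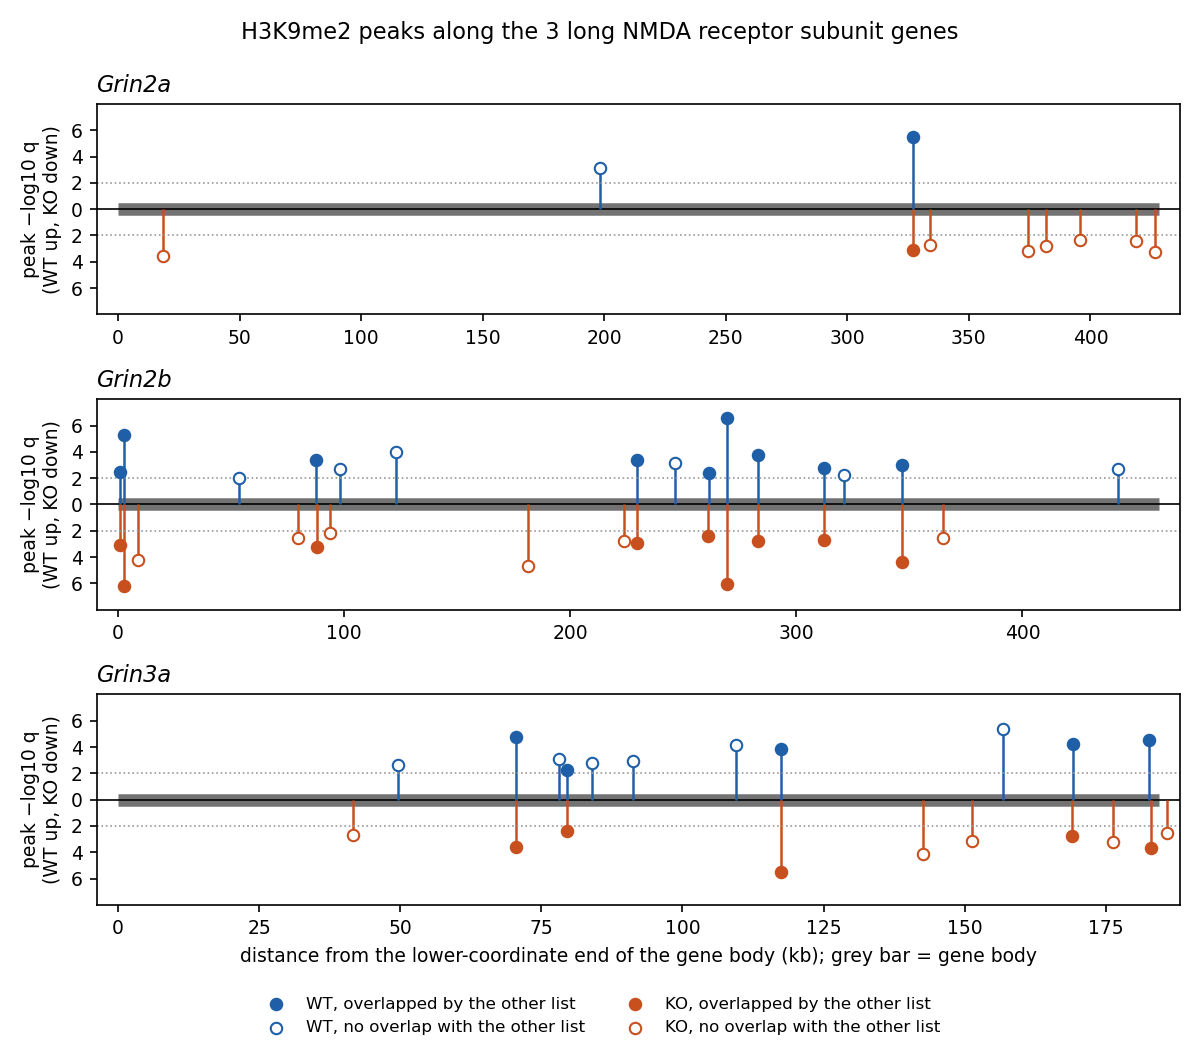
Position of every H3K9me2 peak along Grin2a, Grin2b and Grin3a, as the distance of its midpoint from the lower-coordinate end of the gene body (horizontal axis, kb; the grey bar is the gene body), with the authors' −log10 q as the height, WT upward and KO downward. Filled points are overlapped by a peak of the other library, open points are not, and the dotted lines mark the authors' threshold of 2. Filled points recur along Grin2b (9 pairs) and Grin3a (5 pairs), while Grin2a has 1 pair and 6 open KO points near its upper end.

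Grin2a encodes GluN2A, the glutamate-binding subunit typical of mature synapses, and lies on chromosome 16 from 9567901 to 9996083. It had 2 peaks in WT and 8 in KO, the numbers known when the genes were chosen. The peaks covered 0.244% of the window in WT and 0.951% in KO. A difference of at least 6 peaks toward KO was seen in 0.170% of all protein-coding windows and one of at least 6 toward WT in 0.124%, but most windows hold too few peaks for either. Among the 458 genes of similar window length, 16 differed by at least 6 toward KO and 10 by at least 6 toward WT, together 5.68%.

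The calls were then taken one by one. The WT call from 9894628 to 9895389, with a −log10 q of 5.50, was in the most significant 10% of its list. It contained a KO call from 9894802 to 9895321 (3.14), the only shared site of the gene. The other WT call, from 9765885 to 9766176 (3.14), had the smallest width the caller allows, 292 bp, and its closest KO peak was 129 kb away.

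Of the 8 KO calls, 7 had no overlapping WT peak. The call from 9901545 to 9902054 (2.76) was the closest to one, 6.16 kb above the shared WT peak. The calls from 9942060 to 9942248 (3.20) and from 9949467 to 9950188 (2.78) were 46.7 and 54.1 kb from any WT peak. The shared site and these calls form a row of sites in the uppermost 25% of the gene body.

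That row went on to the upper end. The call from 9963520 to 9963853 (2.35) had its closest WT peak 52.5 kb away. The call from 9986429 to 9986920 (2.42) was 29.5 kb from a WT peak, which lies beyond the gene. The call from 9993878 to 9995030 (3.28), with 1153 bp the widest of the gene, was centred 1.63 kb inside the upper end and 21.4 kb from a WT peak. In common annotation the upper end is the 5′ end of Grin2a, although strand was not in the gene table used here.

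The remaining KO call lay apart, from 9586185 to 9586373 near the lower end (3.60), at the smallest possible width of 189 bp and 117 kb from a WT peak. In all, 7 of the 8 KO calls, 6 of them without a WT partner, lay in the uppermost 25% of the gene body, a stretch of 107 kb. WT had 1 call there. How often the peaks of other genes of this length gather in such a stretch is not given here, so the row is only described. Between the lowest KO call and the first WT call, 179.5 kb held no peak of either library (9586374 to 9765884).

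None of the 8 KO calls reached a q of 1e-05, against 8.10% of all KO peaks, and their −log10 q ran from 2.35 to 3.60 around the list median of 3.01. Peaks of such q-values often lack a partner. In the deciles of the KO list in which the 8 calls fall, 32.6 to 53.2% of peaks were overlapped by a WT peak, and among all KO peaks 45.9%. The 1 shared site of Grin2a is not set against these shares, since a gene with 2 WT peaks leaves few places for a partner. A WT site without a call had no region of at least 292 bp, the smallest WT peak, past the authors' threshold of 2. Its tag level is not in the list.

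**Figure D3:**
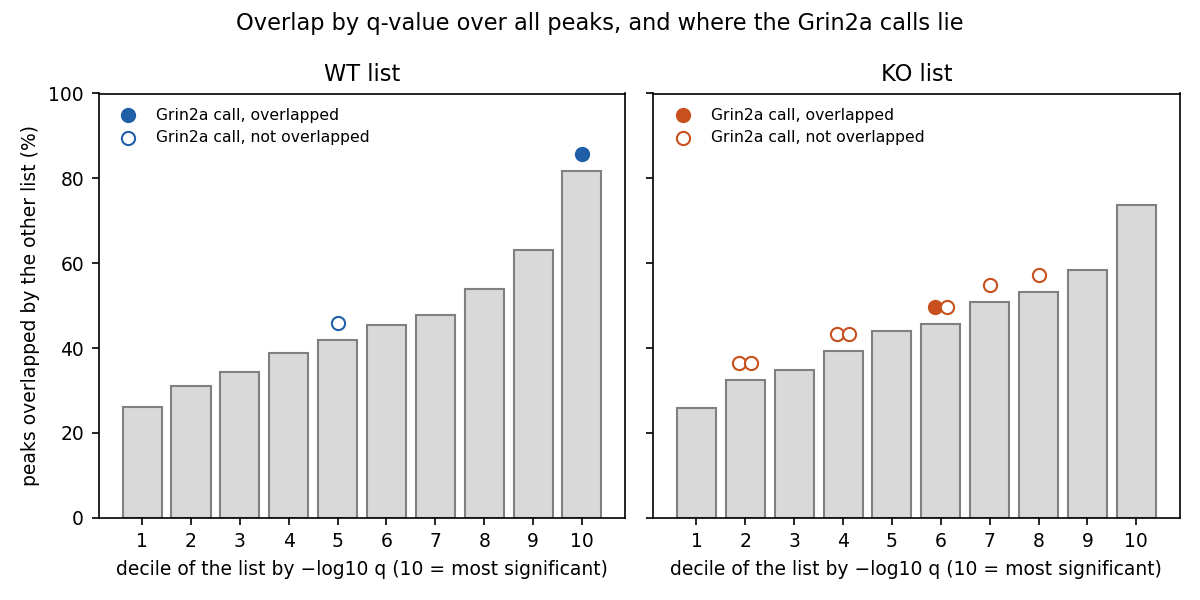
Share of peaks overlapped by the other library (vertical axis, %) in each decile of the list ordered by −log10 q (horizontal axis, 10 the most significant), for all WT peaks on the left and all KO peaks on the right, with the Grin2a calls drawn above the decile they belong to. The bars rise from 26.1 to 81.8% in WT and from 25.8 to 73.7% in KO, and the 8 KO calls of Grin2a lie in deciles 2 to 8.

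In Grin2b and Grin3a, whose sharing was not used in choosing the genes, 14 of the 26 WT peaks (53.8%, exact Clopper-Pearson interval 33.4 to 73.4%) and 14 of the 25 KO peaks (56.0%, 34.9 to 75.6%) were overlapped by the other list. The background was 46.4% of all WT peaks and 45.9% of all KO peaks, and both intervals include it. With Grin2a the counts were 15 of 28 and 15 of 33. In each list the shared member peaks had a higher median −log10 q than the unshared ones, 3.74 against 2.97 in WT and 3.14 against 2.78 in KO, as did all peaks (3.67 against 3.02 and 3.27 against 2.82). Among the Grin2b and Grin3a peaks without an overlap, a peak of the other library lay within 10 kb of 7 of the 12 WT peaks and 8 of the 11 KO peaks, against 48.2% of all such peaks in either list. Nothing is read from this, since both genes are denser in peaks than coding windows as a whole.

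At the stricter q of 1e-05, 4 WT and 3 KO member peaks were left, 13.0% of all WT and 8.10% of all KO peaks being that significant. In WT, 2 of them were in Grin2b and 1 each in Grin2a and Grin3a, and 3 of the 4 had a KO partner in the full list. In KO, 2 were in Grin2b and 1 in Grin3a, and all 3 had a WT partner. The order of Grin2a in the genotypes then turned, with 1 WT and 0 KO peaks.

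The authors' fold enrichment also gives the background against which each peak was called. Dividing the pileup plus 1 by the fold and subtracting 1 returns the background pileup, and its lowest value over each list equalled the genome mean (tags times d over the effective genome size) within 0.1%, which fits the caller's pseudocount of 1. Divided by that genome mean, it is the tag level of the 10 kb around the peak, the peak included, as a multiple of the genome mean. The genome mean is its floor, so where it equals that mean the tag level may be lower. The length d largely cancels out of it. It is approximate, since the caller reports a broad peak by values averaged over its width. Over all peaks its median was 1.66 in WT and 1.57 in KO. Over the member peaks the medians were 2.31 and 2.25, with 23 of 28 WT and 26 of 33 KO member peaks at 1.5 or more, against 58.0% of all WT and 54.0% of all KO peaks. By gene, the WT and KO medians were 2.75 and 2.56 in Grin2b, 1.71 and 1.66 in Grin3a, and 1.48 and 1.94 in Grin2a. Only Grin2b was thus well above the list medians in both libraries, and peaks of the same gene are not independent.

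At the Grin2b peaks this local level ran from 1.93 to 3.24 in WT and from 1.42 to 2.96 in KO. The lowest KO values there lay below the median of all KO peaks. In Grin3a the local level ran from 1.07 to 3.36 in WT and from the genome mean to 3.43 in KO, and the highest values were at the upper end. In Grin2a it was 1.10 at the isolated lower KO call and no higher than the genome mean at the unshared WT call. At the shared Grin2a site it was nearly equal, 1.96 in WT and 1.90 in KO. Along the uppermost 25% of Grin2a the other KO calls had 1.96, 1.87, 1.91, 2.12, 2.43 and, at the end of the gene, 2.44. The list holds no such level for WT at these places, because it is given only at peaks. The closest WT peak above the gene, from 10016394 to 10017215, had 1.34. The closest KO peak above the gene, from 10047606 to 10047953 and 51.5 kb away, had 2.23. At the site shared by both libraries 79.9 kb above the gene, WT had 1.60 and KO 1.51.

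Over the 15 sites shared in the 3 genes the KO to WT ratio of this local level had a median of 0.904 and ran from 0.839 to 1.07, with KO lower at 12 sites and higher at 3. Over the 14553 sites paired one to one in the genome the median ratio was 0.955, with 0.819 and 1.11 as the percentiles 5 and 95, and KO was lower at 70.6%. The member sites lie within that range.

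**Figure D4:**
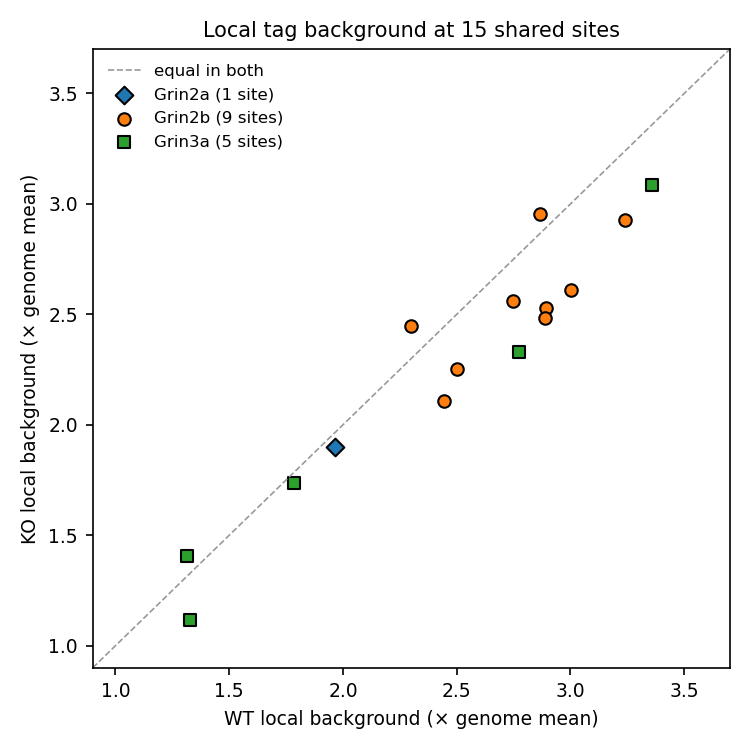
Local tag background of the 10 kb around each shared peak, as a multiple of the genome mean, in WT (horizontal axis) and KO (vertical axis) for the 15 sites of Grin2a, Grin2b and Grin3a called in both libraries; the dashed line marks equal values. Points lie near the line, from 1.31 in WT and 1.12 in KO upward, with 12 of 15 slightly below it.

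No member peak overlapped another annotated gene, although Gm14329, Gm14330 and Gm26653, 3 long noncoding RNA genes, overlap Grin2b, and a pseudogene, Gm19143, lies within Grin2a. Peaks at gene ends were few. Within 2 kb of an end of a long gene lay the midpoints of 2 WT and 4 KO peaks. They were at the lower end of Grin2b (1 in each library), the upper end of Grin3a (1 and 2) and the upper end of Grin2a (0 and 1). In successive stretches of 25% of the gene body from the lower end, Grin2b had 5, 2, 6 and 2 WT peaks and 6, 3, 4 and 2 KO peaks. Grin3a had 0, 6, 2 and 3 in WT and 1, 2, 1 and 5 in KO, with 1 more beyond the body. Exons were not used here, so intronic and exonic positions were not separated.

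The 3 genes sit in unlike surroundings. In the 500 kb on each side, Grin3a had 26 WT and 25 KO peaks per Mb, most of them above the gene (22 of 26 and 21 of 25). This is the gene-free side: the closest coding neighbour above, Cylc2, is 1371 kb away, whereas Rnf20 ends 4.72 kb below. Around Grin2b there were 16 WT and 9 KO peaks per Mb, with 14 and 8 of them below the gene. With 1 Mb on each side the values fell to 8 and 4.5 per Mb. Around Grin2a there were 5 and 5 per Mb, beside 4.63 (WT) and 18.5 (KO) in the gene, which restate the peak numbers known beforehand. The surroundings of Grin2a tilted with genotype in opposite senses on either side, 3 WT and 1 KO peaks below and 2 WT and 4 KO peaks above, numbers too small to separate from counting error. Its closest coding neighbours, 1810013L24Rik 709 kb below and Rpl39l 174 kb above, had no peak.

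**Figure D5:**
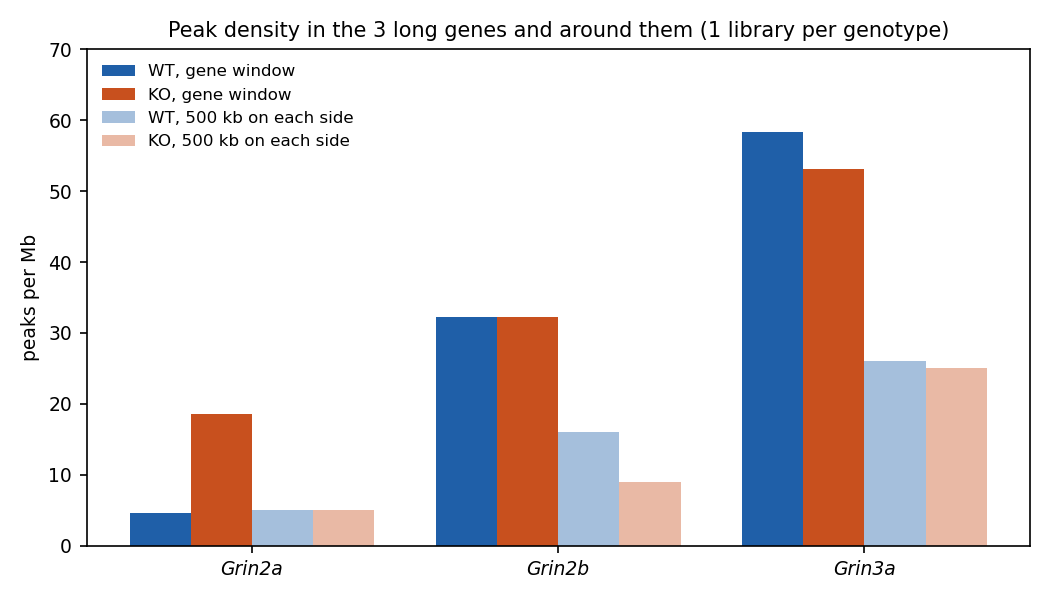
H3K9me2 peaks per Mb (vertical axis) in the windows of Grin2a, Grin2b and Grin3a (full colour) and in the 500 kb on each side (pale), for the single WT and the single KO library. Every gene is above its surroundings in KO, whereas in WT Grin2a, at 4.63, lies next to its surroundings at 5; bars carry no replicate error.

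Other ionotropic and metabotropic glutamate receptor genes split by length in the same way. Of 26 glutamate receptor genes, the 7 NMDA subunits included, 18 have a body of at least 100 kb. Of these, 16 had a peak in at least 1 library, against 41.0% of all coding genes of at least 100 kb. The long receptor genes were not matched to these in length, and the share depends on length. Among genes with a window within 1.5 times that of the member, it was 69.4% for Grin2a, 71.0% for Grin2b and 33.4% for Grin3a. None of the 8 shorter ones had a peak, against 8.13% of all shorter coding genes. The 11 AMPA, kainate and delta genes held 13.0 WT and 10.1 KO peaks per Mb and the 8 metabotropic genes 39.1 and 39.4, so the NMDA subunit windows, with 23.5 and 27.7 per Mb, lay between them. The 2 long receptor genes without a peak, Grik3 and Grik4, encode kainate receptor subunits.

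Of 17 scaffold and signalling partners of NMDA receptors, 3 had a peak. The median KO minus WT difference was 0, as over all coding genes, because most genes had no peak in either library. Dlg2, a postsynaptic scaffold that binds GluN2 tails, held 98 WT and 95 KO peaks. Dlgap1, which links such scaffolds to Shank proteins, held 9 and 11. Neto1, an auxiliary protein of kainate and NMDA receptors, held 0 and 2. The scaffold genes Dlg1, Dlg3, Dlg4 and Shank1 to Shank3, the kinase genes Camk2a, Camk2b, Fyn, Src and Ptk2b, and Homer1, Nos1 and Actn2 had none. Of 12 genes for glutamate, glycine and D-serine transport and turnover, only Slc17a6, a vesicular glutamate transporter, had a peak, 1 in each library. Over all protein-coding genes 11.8% had a peak in either library, against 3 of 17 and 1 of 12 here.

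By distance in log window length and in the square roots of WT and KO peak numbers, the coding genes outside the glutamate receptors most like Grin2b were Unc13c (16 WT and 15 KO peaks, distance 0.140), Nr3c2 (15 and 16, 0.176) and 2210408I21Rik (16 and 16, 0.180). Most like Grin3a were Itprid1 (11 and 9, 0.164), Dchs2 (12 and 10, 0.181) and Arhgap42 (11 and 11, 0.198). For Grin2a the closest were Slit3 (2 and 6, 0.403), Mpped2 (2 and 9, 0.419) and Fbn2 (3 and 7, 0.488). These last 3 are farther from Grin2a than any of the others is from its gene. For Grin2a the measure uses the peak numbers known when the genes were chosen, so nothing is read from that distance. The measure rests on 1 library per genotype.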

How the data were processed

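H3K9me2 was profiled by CUT&Tag in activated B cells, with 1 WT and 1 KO library told apart by their genotype labels. Tools in the submitters' processing notes are deepTools, HOMER, MACS2, Picard, SAMtools 1.11, Bowtie2 2.4.2 and Trim Galore 0.6.6, with mm10 as the build. MACS 2.2.7.1 was run by the authors on each library alone, per the file headers, in broad mode, at a q of 0.01, with duplicates kept, no control library and an effective genome size of 1870000000 bp. The deposited pileup is a coverage signal of tags extended to d, not scaled between libraries. P-values and q-values were deposited as −log10 values of the authors' caller, and the deposited fold enrichment is its ratio to the local background of 10 kb. Without a control and with duplicates kept, a peak can be any region that attracts reads, and a domain wider than 10 kb raises its own background.

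Gene positions came from RefSeq (GRCm38.p6), with 348 genes that break the order of starts, as those of patch scaffolds do, left out. Windows, overlaps of at least 1 bp, exact Poisson and Clopper-Pearson 95% intervals and local background ratios were computed with Python 3.11.15, pandas 2.3.3 and scipy 1.17.1. Intervals cover counting error only and treat peaks as independent. Counting was tested on simulated data, with the planted peak number returned for 200 of 200 gene windows. Named genes were the members, partner genes with a peak, the 3 coding genes most like each member with at least 5 peaks, and the coding neighbours given with the surroundings. Members, lists and rules were chosen with earlier results of these data known. Alternatives were q, flank, width, merging, list size, overlap, length and neighbourhood limits. One gene of the B cell marker list and 1 of the scaffold list are not reported here and were left out of those counts.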

Additional observations from a re-analysis of the deposited data

How the results depend on the processing

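No paired analysis was possible because each genotype had 1 library. Peaks in the 4 short genes stayed at 0 in both libraries under every alternative for q, flank, width, merging and list size. That outcome was fixed beforehand. A stricter q, a width limit, merging or a shorter list cannot add a peak, and none lay within 500 kb for a wider flank to reach. At a q of 1e-05 or lower, the members had 4 WT and 3 KO peaks, the Grin2a difference of 6 peaks toward KO turned to -1, the long genes were covered by 0.267% in WT and 0.0819% in KO, and the overlapped share was 75% in WT (3 of 4) and 100% in KO (3 of 3). With peaks at least 1 kb wide, there were 3 WT and 2 KO peaks, a Grin2a difference of 1, and covered shares of 0.341% and 0.219%. With 1 Mb on each side in place of 500 kb, 20 WT and 19 KO peaks lay around the short genes, all near Grin3b, and the surroundings of Grin2b fell from 16 to 8 (WT) and from 9 to 4.5 (KO) peaks per Mb. With a WT peak within 10 kb counted as a partner, 2 Grin2a KO calls had one. Fewer peaks pass a stricter q or width by construction. The q and width depend on d, and the part of d in the Grin2a reversal was not tested. A further 48 values of the comparisons, over all alternatives run, stayed within 1.5 times the reported value or within its interval. They include the KO covered share of the long genes with each KO peak made 103 bp longer, the gap in d. It rose from 1.37% to 1.69%, past the WT share of 1.51%, so the genotype order of this covered share turned. Values by gene are not given for this alternative. Without the pseudocount, added after seeing the data, the local background changed by less than 1.5 times.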
